A study of Mus musculus with 10 samples.

Results

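ChREBP, the carbohydrate response element binding protein encoded by Mlxipl, was examined in mouse pancreatic islets with and without β cell FIT2, together with its partner and a set of its target genes. The 10 genes, chosen by name out of 47340 genes in the deposited table, were Mlxipl itself, Mlx (its obligate partner), Txnip and Arrdc4 (genes that respond to glucose), Pklr (liver-type pyruvate kinase) and 5 genes of fatty acid synthesis, Acly, Acaca, Fasn, Scd1 and Elovl6. RNASeq was performed on islets of 5 floxed control (FL) and 5 βFIT2KO (KO) male mice aged 12 wk and fed chow, with 1 library per mouse, after a night of recovery. Both groups carried floxed Fitm2, the gene of FIT2, a protein of the endoplasmic reticulum that is needed to form lipid droplets, and the labels call the FL genotype wild type. KO mice in addition expressed Cre from the rat insulin promoter (the transgene Tg(Ins2-cre)25Mgn), and no library analysed here came from islets with Cre and an unfloxed Fitm2, so an effect of Cre itself cannot be told apart from that of FIT2 loss.

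When glucose enters a β cell or a hepatocyte and is phosphorylated, ChREBP moves to the nucleus, pairs with MLX and binds carbohydrate response elements, which are composed of a spaced pair of E-box-like motifs. Its known targets serve glycolysis (Pklr), the conversion of citrate into fatty acids (Acly, Acaca, Fasn, Scd1, Elovl6) and feedback on glucose uptake (Txnip, Arrdc4). In β cells the pathway is known for its part in the response to sustained high glucose.

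In KO islets Mlxipl fell to 42.8% of its FL level. Among Mlx and the 8 target genes chosen here, none was called lower and 1, Elovl6, was called higher, at 1.29-fold. Of 14 further known ChREBP targets that were tested, 3 were called lower and 3 higher. Tests used limma over 13065 genes, on log2(FPKM + 1), with Benjamini-Hochberg adjustment over all of them and calls at an adjusted p of at most 0.05. FPKM are fragments per kilobase of exon, by definition relative to the fragments mapped in a library. How the deposited FPKM were scaled between libraries is not given in the sources used here. A log2 fold change is KO minus FL on the log2(FPKM + 1) scale, which understates changes of genes with low FPKM. Of the 10 genes, 1 was called lower and 1 higher, where 16.5% of all genes tested were called lower and 9.05% higher. So few genes say little against these shares. The median log2 fold change was −0.08 over the 10 genes and −0.06 over all tested genes.

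Promoter sequences are shown first, because ChREBP is known to act through elements in promoters. Those printed are of the called genes, Mlxipl and Elovl6, and the only windows with the spaced pair described below, of Txnip and Pklr. Sequences were taken from RefSeq (GRCm38.p6), which gave windows from 250 bases before to 50 bases after a gene start for 9 of the 10 genes. There were 11 windows, with 2 starts for Mlxipl and for Pklr and none for Scd1. The only window of Acaca, chr11:84195188-84195487, lies within the gene as GENCODE M21 places it (84129672 to 84401651), so no window covers its outermost start. The stretch before the start is printed 5′ to 3′ on the plus strand, without bases of the gene's own exons (the stretches of Txnip and Elovl6 overlap exons of the antisense genes Gm15441 and Gm35986), and capitals mark a match to CACGTG (the E-box), to CACGNG and CNCGNG spaced by NNNNN (a pair of E-box-like motifs) or to TCACNCCAC (a sterol response element core), searched on both strands.
Mlxipl, upstream start, chr5:135089640-135089889: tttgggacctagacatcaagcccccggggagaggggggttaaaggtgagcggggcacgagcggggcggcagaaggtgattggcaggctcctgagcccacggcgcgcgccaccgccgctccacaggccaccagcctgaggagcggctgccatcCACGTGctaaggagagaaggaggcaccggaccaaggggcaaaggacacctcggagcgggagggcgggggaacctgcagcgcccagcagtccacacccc
Mlxipl, downstream start, chr5:135106641-135106890: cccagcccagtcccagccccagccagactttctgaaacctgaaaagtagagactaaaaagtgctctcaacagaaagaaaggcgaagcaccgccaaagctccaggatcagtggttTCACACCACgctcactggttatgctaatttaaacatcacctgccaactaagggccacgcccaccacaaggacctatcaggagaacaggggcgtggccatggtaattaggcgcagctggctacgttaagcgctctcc
Txnip, chr3:96557707-96557956: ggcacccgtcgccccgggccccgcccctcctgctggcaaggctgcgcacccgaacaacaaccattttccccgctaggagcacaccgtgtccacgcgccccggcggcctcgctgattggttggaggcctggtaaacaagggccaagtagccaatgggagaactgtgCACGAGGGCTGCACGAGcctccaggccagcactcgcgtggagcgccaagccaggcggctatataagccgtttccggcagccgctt
Pklr, downstream start, chr3:89136373-89136571: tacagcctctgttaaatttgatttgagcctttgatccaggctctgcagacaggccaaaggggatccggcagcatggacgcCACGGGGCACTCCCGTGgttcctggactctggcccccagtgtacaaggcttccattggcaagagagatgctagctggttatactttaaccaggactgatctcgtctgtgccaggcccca
Elovl6, chr3:129532136-129532354: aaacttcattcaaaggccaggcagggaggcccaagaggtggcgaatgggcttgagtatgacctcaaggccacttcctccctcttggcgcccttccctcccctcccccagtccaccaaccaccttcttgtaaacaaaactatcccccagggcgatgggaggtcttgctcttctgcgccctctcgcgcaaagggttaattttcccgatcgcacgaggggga

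The spaced pair was found in 2 of the 11 windows, those of Txnip, where it began 85 bases before the start, and of the downstream start of Pklr, where it began 170 bases before the start. It was found in 0.365% of 32851 windows of all genes. CACGTG was found in 3 windows, those of the upstream start of Mlxipl, of Mlx and of Arrdc4, and in 7.15% of all windows. TCACNCCAC was found only at the downstream start of Mlxipl among the 11 windows, and in 1.24% of all windows. CCAAT, the core of the NF-Y site, was found in 7 windows and in 37.4% of all windows. No match overlapped another among those in capitals. The 2 starts of Mlxipl lie 17001 bases apart. The transcript from the upstream start is known as ChREBP-β, whose promoter is itself a ChREBP target, and that from the downstream start as ChREBP-α. The FPKM of Mlxipl cover the whole gene, so the 2 transcripts were not measured separately.

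Mlxipl (ENSMUSG00000005373.13) lies on chromosome 5, plus strand, 135089890 to 135138382 (GRCm38, GENCODE M21). Across replicates 1 to 5 it was at 44.6, 47.6, 50.7, 41.5 and 51.7 FPKM in FL mice, against 20.9, 20.8, 21.4, 19.5 and 18.4 FPKM in KO mice. The KO libraries all lay below the FL libraries, as in 12.5% of all genes tested. The mean fell from 47.2 ± 4.23 to 20.2 ± 1.25 FPKM (SD, n = 5), giving a log2 fold change of −1.18 (SE 0.07, 95% interval −1.33 to −1.03, adjusted p = 6.88e-07 from limma). Only 70 of the 13065 tested genes (0.536%) had a lower log2 fold change. An antisense gene, Gm43500, shares 235 nt of exon with Mlxipl and is listed at 0 in every library.

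Islets are a mixture, and in bulk samples fewer cells of a type and less RNA per cell cannot be told apart. Marker counts stand against the 16.5% of all tested genes that were lower and the 9.05% that were higher, and lists of few genes say little against these shares. Of 10 β cell markers, 6 of the 7 that were tested were lower in KO, among them Mafa (log2 fold change −1.21) and Slc30a8 (−0.76), and the summed FPKM of the list was 2273 to 2844 in FL and 1511 to 2124 in KO. The remaining 3, Ins1, Ins2 and Iapp, are listed at 0 in all 10 libraries, which can be a failed estimate in genes of this abundance. Among markers of other cells, 3 of 4 endothelial genes (summed FPKM 105 to 122 in FL and 126 to 170.5 in KO), 3 of 3 tested stromal genes (8.84 to 15.7 and 19.4 to 24.4) and 1 of 3 tested macrophage genes (24.4 to 29.9 and 37.9 to 44.5) were higher in KO. The summed acinar markers overlapped (3275 to 8261 in FL and 2112 to 15770 in KO), and none of the 7 was called. Among α cell markers 2 of 5 tested were lower (summed FPKM 434.6 to 650.4 in FL and 288.5 to 429.4 in KO), with Gcg at 0 in every library, and of the δ cell markers 1 of 3 was (4958 to 5850 and 3991 to 5337). Ppy, for PP cells, was at 2811 to 16920 and 8815 to 12870 FPKM, and of the 3 duct markers tested only Cftr was called, as higher, a gene that reached the filter through KO only, with means of 0.0372 FPKM in FL and 2.13 FPKM in KO (summed FPKM 28.9 to 54.6 and 32.7 to 79.8). The part of these shifts in the fall of Mlxipl, or in the other results, was not tested. Fitm2 itself was at 23.3 ± 9.86 (FL) and 6.95 ± 2.36 FPKM (KO; SD, n = 5), and the groups did not overlap.

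**Figure D1:**
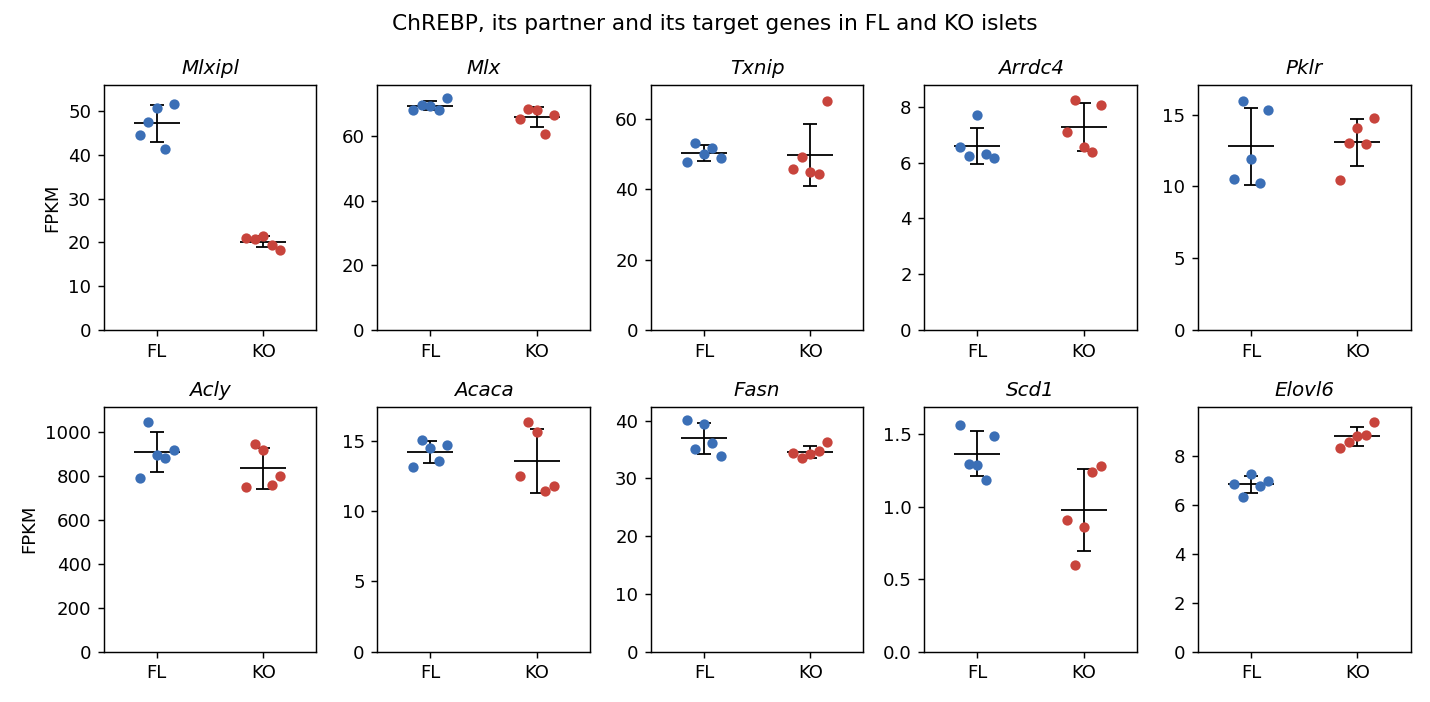
FPKM of each of the 10 genes (y axis, linear, from 0) in the 5 FL (blue) and 5 KO (red) libraries, where points are mice and black lines are the mean with SD. Mlxipl is at 41.5 to 51.7 FPKM in FL and 18.4 to 21.4 FPKM in KO, Elovl6 is higher in every KO library, and the groups overlap in the other 8 genes.

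The partner of ChREBP did not pass the test. Mlx (ENSMUSG00000017801.15, chromosome 11, 101087277 to 101092207, plus strand), a basic helix-loop-helix zipper protein that ChREBP needs to bind DNA, was at 68.1, 69.8, 69.4, 68.2 and 71.7 FPKM in FL and at 65.2, 68.5, 68.0, 60.7 and 66.6 FPKM in KO. Of the KO libraries, 4 lay below the FL range and 1 inside it. The mean was 69.4 ± 1.46 (FL) and 65.8 ± 3.11 FPKM (KO; SD, n = 5), and the log2 fold change was −0.08, which did not pass (95% interval −0.17 to 0.02, adjusted p = 0.222 from limma, exact two-sided permutation p = 0.0317 before any adjustment). Over the 25 alternative settings described at the end, the log2 fold change of Mlx ranged from −0.103 to −0.0174. Psmc3ip, on the opposite strand, shares 385 nt of exon with Mlx and was at 1.71 to 3.63 FPKM. Mlxip, which encodes MondoA, the paralog of ChREBP that also pairs with MLX, was at 12.9 ± 1.31 (FL) and 12.2 ± 1.04 FPKM (KO; SD, n = 5; log2 fold change −0.07, adjusted p = 0.525 from limma).

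Since FPKM are scaled by length, the genes can be set against each other within a library. The ratio of Mlxipl to Mlx was 0.656, 0.6825, 0.730, 0.608 and 0.721 in FL libraries and 0.321, 0.303, 0.315, 0.320 and 0.276 in KO libraries. The ratio of Mlxipl to Mlxip was 3.26 to 4.05 in FL (mean 3.68 ± 0.31) and 1.39 to 1.87 in KO (mean 1.67 ± 0.199; SD, n = 5). Neither ratio overlapped between the groups, and Mlxipl remained above its paralog Mlxip in every KO library. These ratios do not depend on how the libraries were scaled, and they were chosen after the values had been seen.

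**Figure D2:**
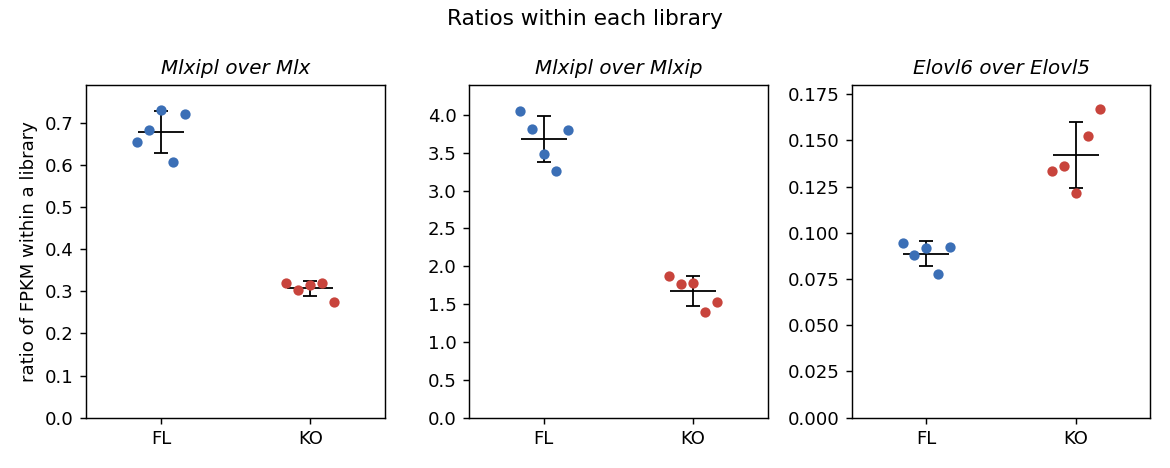
Ratio of FPKM of 2 genes within a library (y axis, linear, from 0) for Mlxipl over Mlx, Mlxipl over Mlxip and Elovl6 over Elovl5, with points for mice (FL blue, KO red) and black lines for the mean and SD. The first 2 ratios are lower and the third is higher in every KO library than in any FL library.

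Of the wider network of MAX and MLX proteins, which share dimerization partners and E-boxes, 8 of 11 other genes were tested and 1 was called lower, which is no more than the 16.5% of all tested genes. That was Mga, a MAX partner, at 23.2 ± 2.09 (FL) and 19.4 ± 1.3 FPKM (KO; SD, n = 5; log2 fold change −0.24, adjusted p = 0.022 from limma), a call lost without KO mouse 4 (adjusted p = 0.0549). Max was at 40.05 ± 1.52 and 40.2 ± 2.48 FPKM in FL and KO (adjusted p = 0.976, limma), and its sign changed when single mice were left out. Among 13 cofactors and modifiers of ChREBP, 3 were called lower, where 16.5% of all tested genes were, namely Hcfc1 (log2 fold change −0.32), a host cell factor that binds ChREBP, Prkaa1 (−0.37), a catalytic subunit of AMPK, and Prkaca (−0.13), a catalytic subunit of protein kinase A, which like AMPK phosphorylates ChREBP. The call of Hcfc1 was lost under quantile normalization (adjusted p = 0.0505 from limma) and by the exact rank test (adjusted p = 0.0642). The call of Prkaca was lost under the 4 rescalings (adjusted p = 0.101 to 0.204 from limma), with eBayes without a trend (0.0502) and without FL mouse 2, 3 or 5 or KO mouse 1, 4 or 5 (0.0723 to 0.0911). Ogt and Oga, which add and remove O-GlcNAc, had log2 fold changes of −0.04 and 0.06 and were not called.

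The glucose-responsive genes Txnip and Arrdc4 encode α-arrestins that lower glucose uptake, and both are direct targets of ChREBP and MondoA in other cells. Txnip (ENSMUSG00000038393.14, chromosome 3, 96557957 to 96561883, plus strand), whose promoter above holds the spaced pair, was at 47.7, 53.2, 49.96, 51.8 and 48.9 FPKM in FL and at 45.7, 49.0, 44.7, 44.2 and 65.1 FPKM in KO. Of the KO libraries, 3 were below the FL range, 1 was within it, and that of KO mouse 5 was above all others. The means were 50.3 ± 2.22 and 49.8 ± 8.77 FPKM (SD, n = 5), giving a log2 fold change of −0.03 (95% interval −0.24 to 0.18, adjusted p = 0.849 from limma) whose sign depended on the scaling of the libraries. Without KO mouse 5 it was −0.13 (adjusted p = 0.092 from limma). An antisense gene, Gm15441, shares 606 nt of exon with Txnip and was at 0.332 to 0.843 FPKM.

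Arrdc4 (ENSMUSG00000042659.15, chromosome 7, 68736995 to 68749241, minus strand) was at 6.58, 6.25, 7.70, 6.30 and 6.17 FPKM in FL and at 7.11, 8.26, 6.58, 6.38 and 8.06 FPKM in KO. The groups overlapped, with 2 KO libraries above the FL range. The log2 fold change was 0.12 (95% interval −0.06 to 0.30, adjusted p = 0.307 from limma), and it ranged from 0.061 to 0.1705 over the 25 alternatives. Of the other α-arrestins, Arrdc1 was lower (12.3 ± 1.1 in FL, 10.1 ± 0.858 FPKM in KO; SD, n = 5; log2 fold change −0.26, adjusted p = 0.0228 from limma), a call lost under all 4 rescalings (adjusted p = 0.0532 to 0.0808) and without FL mouse 3, FL mouse 4 or KO mouse 1 (0.0513 to 0.0553). Arrdc2 had a log2 fold change of 0.02, whose sign turned under quantile normalization and without either of 2 mice, Arrdc3 one of −0.03, whose sign turned under the 4 rescalings and without KO mouse 4, and Arrdc5 is listed at 0 in every library.

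Pklr (ENSMUSG00000041237.12, chromosome 3, 89136142 to 89146784, plus strand), which makes pyruvate in the last step of glycolysis and carries the textbook carbohydrate response element, was at 10.6, 15.97, 11.9, 10.2 and 15.3 FPKM in FL and at 10.5, 13.0, 14.1, 13.0 and 14.8 FPKM in KO. The KO values lay within the FL range. The log2 fold change was 0.04 (95% interval −0.25 to 0.33, adjusted p = 0.848 from limma), a sign that changed when single mice were left out, and Pklr had the widest spread among FL mice of the 10 genes, with a coefficient of variation of 20.9%. Pkm, the more abundant pyruvate kinase of islets, was lower (409 ± 9.46 in FL, 316 ± 51.5 FPKM in KO; SD, n = 5; log2 fold change −0.39, adjusted p = 0.0145 from limma). Hcn3, on the opposite strand, shares 711 nt of exon with Pklr and was at 6.88 to 10.4 FPKM, so its reads may count for Pklr if strand was not used, which the sources used here do not state.

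**Figure D3:**
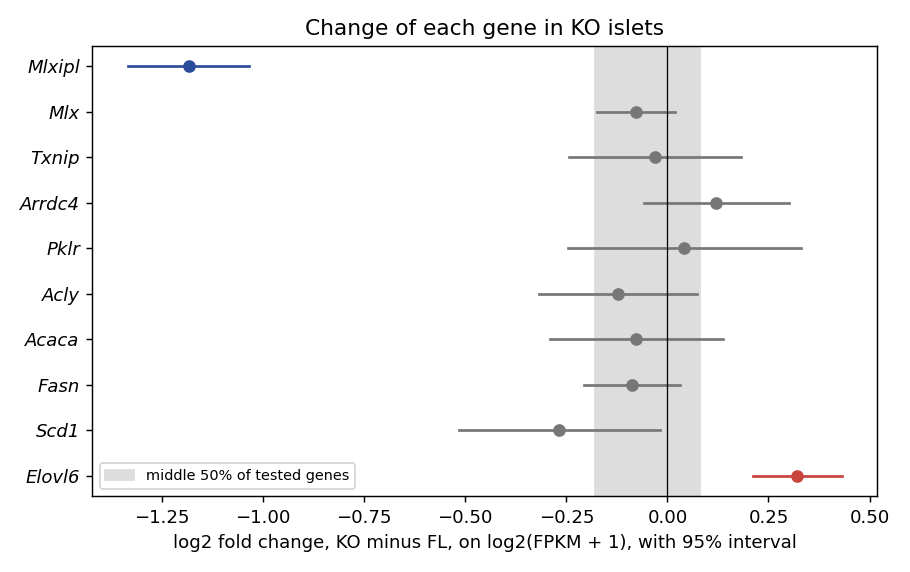
Log2 fold change of the 10 genes (x axis, KO minus FL, on log2(FPKM + 1)) with 95% intervals from limma, coloured blue where called lower, red where called higher and grey where not called, over a grey band for the interquartile range of all tested genes. The interval of Mlxipl ends at −1.03, and no interval of the 8 genes that were not called reaches below −0.52.

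The first enzymes of fatty acid synthesis did not pass the test. Acly (ENSMUSG00000020917.17, chromosome 11, 100476353 to 100528000, minus strand), ATP citrate lyase, which makes cytosolic acetyl-CoA, was at 792, 1046, 896, 881 and 918 FPKM in FL and at 749, 946, 919, 757 and 797 FPKM in KO. It was the most abundant of the 10 genes by FPKM, and 2 KO libraries fell below the FL range. Its log2 fold change was −0.12 (95% interval −0.32 to 0.07, adjusted p = 0.348 from limma), and it ranged from −0.1915 to −0.067 over the 25 alternatives. Acaca (ENSMUSG00000020532.18, chromosome 11, 84129672 to 84401651, plus strand), acetyl-CoA carboxylase, the committed step, was at 13.1, 15.1, 14.5, 13.6 and 14.7 FPKM in FL and at 12.5, 16.4, 15.7, 11.4 and 11.8 FPKM in KO. KO libraries lay on either side of the FL range, 3 below it and 2 above it, and the log2 fold change was −0.08 (95% interval −0.29 to 0.14, adjusted p = 0.601 from limma). Under the 25 alternatives the log2 fold change of Acaca ranged from −0.146 to −0.0234.

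Fasn (ENSMUSG00000025153.9, chromosome 11, 120805846 to 120824547, minus strand), fatty acid synthase, which builds palmitate, was at 40.1, 35.2, 39.4, 36.1 and 33.9 FPKM in FL and at 34.4, 33.5, 34.2, 34.7 and 36.3 FPKM in KO. The KO values were close together, with a coefficient of variation of 2.99%, with 1 below the FL range and the others within it. The log2 fold change was −0.09 (95% interval −0.21 to 0.03, adjusted p = 0.264 from limma), and it ranged from −0.1168 to −0.0225 over the 25 alternatives. As a change of FPKM + 1, the lower ends of the intervals were −11.3% for Mlx, −19.8% for Acly, −18.2% for Acaca and −13.3% for Fasn, while the interval of Mlxipl ran from −60.3% to −51.2%. That of Scd1, which was not called, ran from −30.0% to −1.32%.

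Scd1 (ENSMUSG00000037071.2, chromosome 19, 44394455 to 44407879, minus strand), stearoyl-CoA desaturase 1, which turns saturated into monounsaturated fatty acids, was the least abundant of the 10 genes. It was at 1.56, 1.30, 1.29, 1.19 and 1.49 FPKM in FL and at 0.912, 0.601, 0.857, 1.24 and 1.29 FPKM in KO. Of the KO libraries, 3 lay below the FL range and 2 within it, and Scd1 reached the filter of 1 FPKM through FL only, since its KO mean was 0.979 FPKM. The log2 fold change was −0.27 (SE 0.11, 95% interval −0.52 to −0.02), and it did not pass (adjusted p = 0.107 from limma; exact two-sided permutation p = 0.0397 before any adjustment). At the low pseudocount of 0.01, which weighs low FPKM more, the log2 fold change was −0.52 and the adjusted p 0.0904. Scd2, the main desaturase of islets here, was at 54.9 ± 5.2 (FL) and 51.85 ± 5.96 FPKM (KO; SD, n = 5; log2 fold change −0.08, adjusted p = 0.513 from limma), and Scd1 and its paralogs share sequence that counting could split between them. Scd1 is also an abundant gene of fat cells, and of the adipocyte markers Adipoq and Cfd are listed at 0 in every library and Plin1 and Lep in 9 of 10. Cidec, also untested, was above 0 in every library, at 0.11 to 0.322 FPKM in FL and 0.171 to 0.302 FPKM in KO. Of the 2 adipocyte markers tested, Fabp4, which endothelial cells also express, was higher and Pparg was not called (summed FPKM of the list 37.6 to 46.8 in FL and 48.6 to 56.7 in KO), and the part of this in Scd1 was not tested.

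Elovl6 (ENSMUSG00000041220.10, chromosome 3, 129532355 to 129638495, plus strand) extends palmitate to stearate and was the 1 gene of the 10 that was called higher. It was at 6.84, 6.31, 7.26, 6.76 and 6.97 FPKM in FL and at 8.31, 8.57, 8.80, 8.85 and 9.37 FPKM in KO. Every KO library was above every FL library, as in 6.67% of all tested genes. The mean rose from 6.83 ± 0.346 to 8.78 ± 0.392 FPKM (SD, n = 5), giving a log2 fold change of 0.32 (SE 0.05, 95% interval 0.21 to 0.43, adjusted p = 0.000955 from limma), and 8.2% of tested genes had a higher log2 fold change. The rise was short of 1.5-fold. The antisense gene Gm35986, which shares 34 nt of exon, was at 0.119 FPKM at most.

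**Figure D4:**
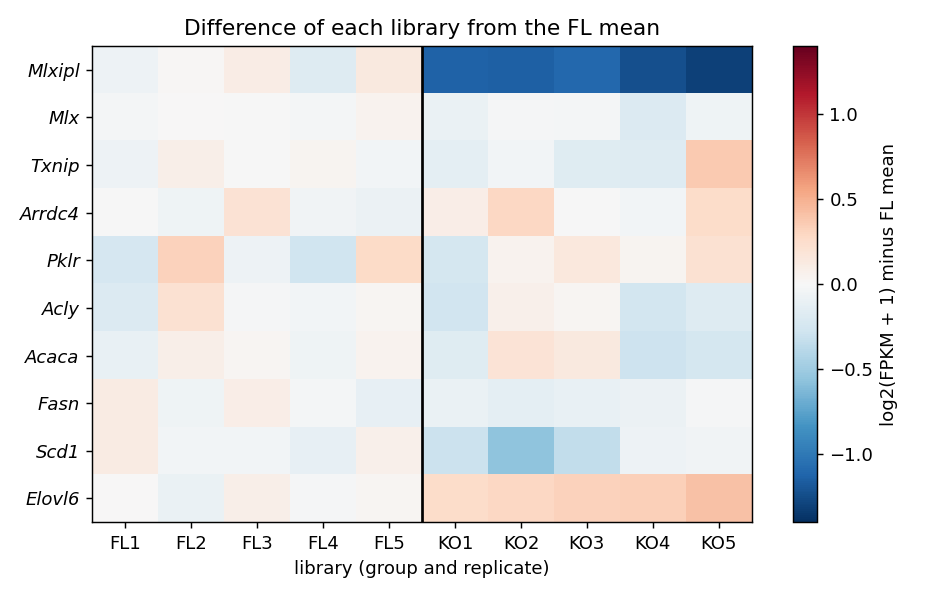
Difference of each library (x axis) from the FL mean of each gene (y axis), as log2(FPKM + 1), in red where higher and blue where lower. Mlxipl is blue in all 5 KO libraries and Elovl6 red in all 5, whereas Txnip is red only in replicate 5 among the KO libraries.

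Among related elongases, Elovl5, which lengthens polyunsaturated fatty acids, was lower in KO (77.2 ± 6.21 in FL, 62.3 ± 6.28 FPKM in KO; SD, n = 5; log2 fold change −0.31, adjusted p = 0.0137 from limma). The ratio of Elovl6 to Elovl5 was 0.0776 to 0.0943 in FL libraries and 0.122 to 0.167 in KO libraries. The ratio of Elovl6 to Fasn was 0.171 to 0.206 in FL and 0.242 to 0.258 in KO. Neither overlapped between the groups, and both were chosen after the values had been seen. Elovl7 was at 4.66 ± 0.785 and 5.77 ± 0.681 FPKM (SD, n = 5) and did not pass (log2 fold change 0.27, adjusted p = 0.0987 from limma).

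By FPKM the order in FL islets was Acly, Mlx, Txnip, Mlxipl, Fasn, Acaca, Pklr, Elovl6, Arrdc4 and Scd1. Neighbours whose FL values overlapped were Txnip with Mlxipl, Acaca with Pklr, and Elovl6 with Arrdc4. In KO islets Mlxipl had moved below Fasn, with no overlap, and every KO value of Elovl6 was above those of Arrdc4. Over the 10 libraries, taken as deviations from their group mean, Acly and Acaca varied together (Pearson r = 0.859, Spearman rho = 0.867, and r = 0.855 without the 2 libraries farthest from the median of Acly), while Acaca and Scd1 went opposite ways (r = −0.81, rho = −0.79, and −0.65 without 2). Mlxipl had r = −0.46 with Txnip (rho = −0.37), which turned to 0.207 without 2 libraries. These are descriptions out of 45 pairs that share the same libraries and their depth. Of the 13065 tested genes, those whose deviations were most like those of Mlxipl over the 10 libraries were Ncam1 (r = 0.965), Ubtf (0.964), Zfp287 (0.961), Mknk1 (0.957) and Arid1b (0.954). They are the highest values of a search over all tested genes with only 10 libraries, no value without a relation was set against them, and nothing is read from them. None of these 5 was called between KO and FL.

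Other known ChREBP targets went both ways. Of 18 genes on this list, 14 were tested, of which 3 rose and 3 fell, where 9.05% of all tested genes rose and 16.5% fell. Their median log2 fold change was −0.06, as it was over all tested genes. Rgs16, a regulator of G protein signalling that glucose induces in islets, fell from 10.1 ± 0.765 to 5.29 ± 0.267 FPKM (SD, n = 5; log2 fold change −0.82, adjusted p = 3.84e-06 from limma). Slc2a2, the GLUT2 transporter, fell from 245 ± 34.5 to 151 ± 25 FPKM (log2 fold change −0.70, adjusted p = 0.00211 from limma) and is also on the list of β cell markers. Khk, ketohexokinase of fructose metabolism, fell from 39.9 ± 3.48 to 27.9 ± 1.65 FPKM (log2 fold change −0.50, adjusted p = 0.000315 from limma). In these 3 genes, named because they were called, all KO libraries lay below the FL libraries, as in 12.5% of all tested genes.

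The higher genes of this list were Angptl8, which encodes an inhibitor of lipoprotein lipase, and the cytosolic dehydrogenases Gpd1 and Me1. Angptl8 rose from 1.44 ± 0.437 to 5.48 ± 0.705 FPKM (SD, n = 5; log2 fold change 1.42, adjusted p = 2.9e-05 from limma). Gpd1, which makes glycerol 3-phosphate, rose from 19.8 ± 0.536 to 24.8 ± 2.15 FPKM (log2 fold change 0.31, adjusted p = 0.00307 from limma), and Me1, malic enzyme, which supplies NADPH for fatty acid synthesis, from 16.5 ± 0.983 to 20.3 ± 1.73 FPKM (log2 fold change 0.28, adjusted p = 0.0102 from limma). In these 3 genes, also named because they were called, all KO libraries lay above the FL libraries, as in 6.67% of all tested genes. Pnpla3, a lipid droplet protein that was not tested because its mean was under 1 FPKM in both groups, was at 0.476 to 1.02 FPKM in FL and 0.0809 to 0.378 FPKM in KO. The other untested genes of this list were Thrsp, Gckr and G6pc. Their means were 0.483, 0.0487 and 0 FPKM in FL and 0.458, 0.0376 and 0.00407 FPKM in KO. Acacb, the mitochondrial acetyl-CoA carboxylase, was at 1.22 ± 0.255 and 1.11 ± 0.295 FPKM (SD, n = 5; adjusted p = 0.687 from limma).

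Of 27 further genes of fatty acid synthesis, elongation and desaturation, 24 were tested, of which 2 rose and 4 fell, shares near those of all tested genes (9.05% and 16.5%). Their median log2 fold change was 0.02. The lower ones were Elovl5, the desaturase Fads2 (log2 fold change −0.38), and Hacd2 (−0.29) and Tecr (−0.17), which act in the elongation cycle that Elovl6 opens. The higher ones were the desaturase Fads1, from 22.4 ± 1.04 to 29.9 ± 3.14 FPKM (SD, n = 5; log2 fold change 0.39, adjusted p = 0.00223 from limma), and Acss2 (0.22), which makes acetyl-CoA from acetate. The call of Tecr was lost under quantile normalization (log2 fold change −0.10, adjusted p = 0.0916 from limma), at the same sum (−0.13, 0.0924) and without KO mouse 4 (adjusted p = 0.0545). That of Acss2 was lost without FL mouse 1, 2 or 4 or KO mouse 1 or 4 (adjusted p = 0.0528 to 0.0689). Slc25a1, the citrate carrier that feeds Acly, was at 128.8 ± 3.75 and 129.5 ± 10.8 FPKM (SD, n = 5; log2 fold change 0.00, adjusted p = 0.962 from limma).

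The other main activator of lipogenic genes is SREBP-1c, and 2 of 11 genes of the SREBP and LXR pathway were lower and none higher, a share of lower genes near the 16.5% of all tested genes. Srebf1, which encodes SREBP-1, ranged from 107.1 to 125.6 FPKM over FL mice and from 76.7 to 90.9 FPKM over KO mice (log2 fold change −0.42, SE 0.06, adjusted p = 0.000573 from limma), with no overlap. Scap, the escort of SREBP to the Golgi, fell from 79.0 ± 9.34 to 63.5 ± 4.3 FPKM (SD, n = 5; log2 fold change −0.31, adjusted p = 0.0182 from limma). Srebf2 was at 44.0 ± 2.99 and 39.0 ± 2.6 FPKM (log2 fold change −0.17, adjusted p = 0.0681 from limma), and it passed without FL mouse 2 (adjusted p = 0.0306) or KO mouse 2 (0.0445). Of 6 genes of glucose uptake and glycolysis, 4 were lower, where 16.5% of all tested genes were. These were Slc2a1, the GLUT1 transporter (log2 fold change −0.69), Pfkfb3 (−0.65) and Pfkfb2 (−0.45), whose products make the activator of phosphofructokinase, and the pyruvate kinase Pkm (−0.39).

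**Figure D5:**
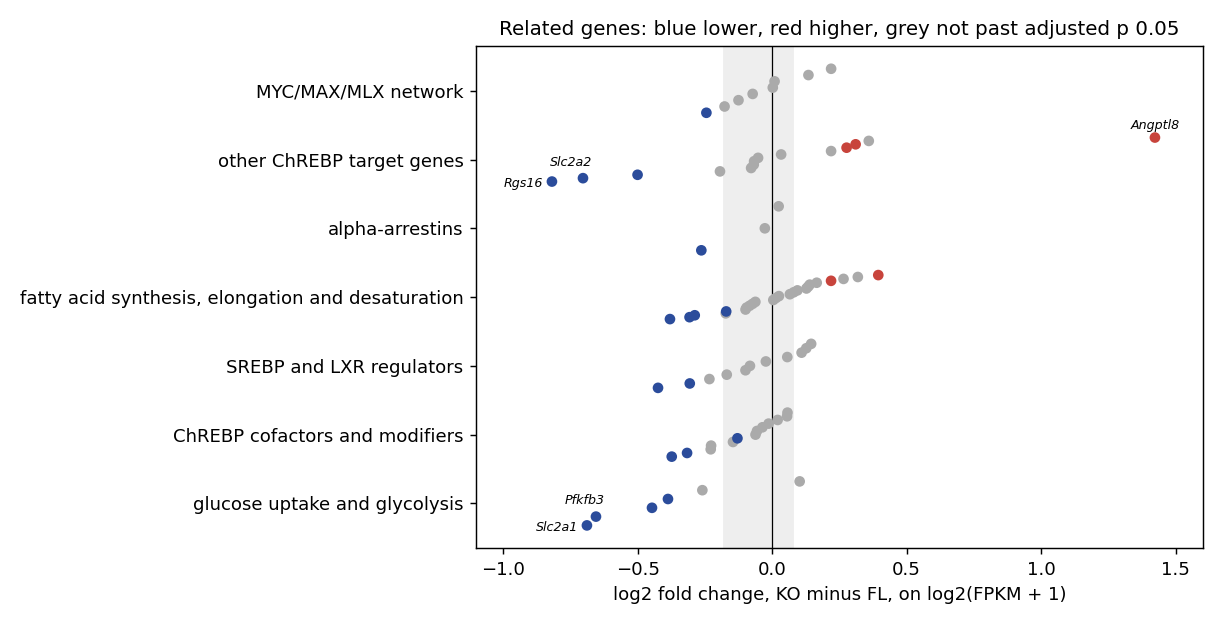
Log2 fold change (x axis, KO minus FL, on log2(FPKM + 1)) of the tested genes of 7 related lists (y axis), 1 point per gene, blue or red where called lower or higher at an adjusted p of at most 0.05 from limma, over a grey band for the interquartile range of all tested genes. Among other ChREBP targets, Rgs16, at −0.82, and Angptl8, at 1.42, are at opposite ends.

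Libraries of both groups were of similar scale, with summed FPKM of 646233 to 675470 in FL and 627084 to 653292 in KO. Rescaling moved the balance of calls over all genes, from 2150 lower and 1183 higher to 1685 lower and 1547 higher by the median ratio, and left Mlxipl lower and Elovl6 higher. Read counts are not given by FPKM, and relative depth from the steps of values under 0.3 FPKM was 1.41 to 2.41 times that of FL mouse 1 among the remaining FL mice, against 1.51 to 2.05 times among KO mice. The p-values measure the spread between mice, 1 library each.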

How the data were processed

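Islet polyA RNA of 5 FL and 5 KO mice was read from 1 end over 75 nt on stranded libraries. The submitters' notes name STAR 2.5.2a, Cuffnorm 2.2.1 and mm10/GRCm38, and the authors deposited 1 table of FPKM for 47340 genes, with a column per mouse; annotation, strand use and scaling are not given in the sources used here. The deposited FPKM were used as they stand. Genes that averaged 1 FPKM or more in either group were tested with limma 3.58.1 in R 4.3.3 (lmFit, eBayes with trend) on log2(FPKM + 1), and single genes with an exact permutation test in scipy 1.17.1, whose smallest p is 0.00794. Groups came from sample titles. The 10 genes and the lists were chosen with earlier results of these data known. Some genes of the lists are not reported here. Named genes were the 10, Fitm2, called genes of the lists, close paralogs or partners, antisense genes, cell type markers and the 5 nearest to Mlxipl. Ogt, Oga and Slc25a1, which were not called, and the untested targets Pnpla3, Thrsp, Gckr and G6pc were named as well. Coordinates and exon overlaps are from GENCODE M21, which held 46841 identifiers (38723 with their version). Alternatives covered pseudocount, filter, scaling, eBayes, weights, replicate block, rank test, thresholds and leaving out each mouse. On simulated data, 196 of 198 genes given a log2 change of 1 were called, and 8 of 12609 unchanged genes were. No smaller change was simulated, so how often smaller changes would be called is not known.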

Additional observations from a re-analysis of the deposited data

Results flagged for a closer look

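In 84 groups of 5 mice (42 genes, each in FL and in KO), 8 groups held 1 mouse far from the other 4. The rule was Dixon's, a gap to the next mouse above 0.71 of the range. For normal values about 4.2 would be flagged by chance, but the genes share the same mice, so no excess is read from this. Of the 10 genes, Txnip had KO mouse 5 at 65.1 FPKM, with the next KO mouse at 49.0 FPKM, and Arrdc4 had FL mouse 3 at 7.70 FPKM, with the next at 6.58 FPKM. Among other targets, Angptl8 had KO mouse 1 at 4.25 FPKM, below the other KO mice. Fads2 had KO mouse 5 at 7.30 FPKM and Elovl7 had FL mouse 5 at 3.31 FPKM. Prkaa1 had FL mouse 4 at 40.7 FPKM, Slc2a1 had KO mouse 3 at 42.7 FPKM and Pkm had FL mouse 2 at 425.6 FPKM.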

How the results depend on the processing

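Of 25 alternatives, Mlxipl was called lower in all 25 (log2 fold change −1.23 to −1.13) and Elovl6 higher in 24 (0.29 to 0.38), the exception being a required change of 1.5-fold, under which 0 of the 10 genes were called higher. Mlx, Txnip, Arrdc4, Pklr, Acly, Acaca, Fasn and Scd1 were called in none (24 for Scd1, which was left out by the filter at 5 FPKM). The stricter thresholds reuse the main fit and could not add a call. Over all genes, 1044 were lower and 622 higher at an adjusted p of 0.01, and 290 and 349 with a 1.5-fold change required. Without 1 mouse, 1589 to 2367 genes were lower and 936 to 1130 higher, and of the 10 genes 1 was lower and 1 higher each time. The log2 fold change of Txnip was 0.02 by median ratio (0.0176), 0.0185 by upper quartile, 0.0324 by quantiles and 0.0127 at the same sum, and ranged from −0.13 to 0.0074 without 1 mouse. That of Arrdc3 was 0.0203, 0.0211, 0.0293 and 0.0157 under the same 4 rescalings. Pklr was at −0.0809 with sample weights and Arrdc2 at −0.0154 by quantiles. Same-numbered FL and KO mice did not deviate together (r −0.10 to 0.003), and with the replicate number as a block 1494 genes were lower and 874 higher, with Mlxipl lower and Elovl6 higher. Without 1 mouse, Pklr ranged from −0.0277 to 0.1209, Max from −0.0193 to 0.0409, Arrdc2 from −0.0108 to 0.059 and Arrdc3 from −0.0724 to 0.0399. The block ended the calls of Mga, Arrdc1, Acss2, Tecr and Prkaca, and the exact rank test those of Mga, Arrdc1, Acss2, Elovl5, Fads2, Hcfc1, Slc2a1 and Pfkfb3. With 5 mice per group, the rank test called only genes whose groups did not overlap (1628 lower and 872 higher), so it restates the overlap. Of 1047 pairs of an alternative and 1 of 42 named genes, 950 kept call and direction and 72 lost the call. In 3 pairs the call was gained (Srebf2), and 22 changed sign. The causes were not tested. Other named genes, among them Ogt, Oga, Slc25a1 and Mafa, are not part of this count.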
